A study of Mus musculus with 14 samples.

Results

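Complement is a set of plasma proteins, most of them made in the liver, together with the regulators and receptors that act on them. A list of 33 complement genes was followed across the livers of Mdr2-KO/IL6-KO, Mdr2-KO and wild-type mice, and each gene was read from its probe of highest mean among those assigned to it alone. Of the 33, 31 had such a probe and are described here, out of 19938 genes tested. C3 and Cfd had no probe of their own in the annotation used. The 31 were sorted by role into 12 recognition and initiation genes, 4 convertase genes, 7 terminal pathway genes, 6 inhibitors and 2 receptors.

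The study profiled tumour-free liver of 14-month-old females on Affymetrix mouse gene arrays hybridised with biotinylated cRNA. There were 6 arrays from Mdr2-KO/IL6-KO mice, which lacked both Mdr2 and IL6, 5 from Mdr2-KO mice, which lacked Mdr2 alone, and 3 from wild-type C57BL/6 mice. Both knockout groups therefore shared the loss of Mdr2 and differed in IL6. The labels do not give the strain background of the knockouts, so a difference of strain and the loss of the genes cannot be told apart, nor do they say whether each array was a separate mouse, so that each p-value covers array-to-array spread that may be technical. Mdr2 is the older name of Abcb4, a transporter that moves phosphatidylcholine into bile, and mice without it develop chronic bile duct injury. Values are on the log2 scale. Group means are given ± SD (n = 6, 5 and 3 arrays for Mdr2-KO/IL6-KO, Mdr2-KO and wild type), and differences in log2 units ± the standard error (SE) of a limma fit over all genes. A gene was called higher or lower at an adjusted p under 0.05.

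As background, complement is started by C1q on antibody, by lectins and collectins on microbial sugars, or by slow turnover of C3 itself. Each route builds convertases that cleave C3 and then C5, releasing the fragments C3a and C5a, which act on receptors of myeloid cells, and starting the membrane attack complex from C5b to C9. Hepatocytes make most of the circulating proteins, macrophages make C1q and properdin, and interleukin 6 raises several complement genes in hepatocytes as part of the acute phase response.

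The checks of the series as a whole were as follows. Abcb4 averaged 9.05 ± 0.20 in Mdr2-KO/IL6-KO livers, 9.01 ± 0.19 in Mdr2-KO livers and 10.36 ± 0.03 in wild-type livers, and was called lower in both knockouts (limma, adjusted p = 4.8e-06 and 5.1e-06). Il6 averaged 3.48 ± 0.31 in Mdr2-KO/IL6-KO, 3.07 ± 0.15 in Mdr2-KO and 3.22 ± 0.10 in wild type, under the background level of 5.48 taken from olfactory receptor genes, so its probe does not check the labels. The Abcb4 means of both knockouts lay above that level, so the Abcb4 probe shows a lower signal and not its absence. The 14 measured hepatocyte markers averaged 11.81 to 12.06 on every array, and all 31 complement genes had a mean above the background level. Array 2 of Mdr2-KO/IL6-KO and array 3 of Mdr2-KO stood apart: the mean of 10 neutrophil markers was 7.93 and 8.45 there, and 5.63 to 6.19 on the other arrays. The Mdr2-KO array 3 also had an acute phase mean of 11.61 over 25 genes, with 10.73 to 10.88 on the other Mdr2-KO arrays, and was the highest of its group for 16 of the 31 complement genes. These are bulk tissue values, in which fewer cells of a type and less RNA per cell cannot be told apart.

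Set against wild type, the receptor genes C3ar1 and C5ar1, the terminal components C6 and C7 and clusterin were called higher in both knockouts. Called lower in both were the lectin pathway genes Mbl2, Colec10 and Masp2, C8g and the inhibitors Cfi and Cd59a. Some of these calls were weak. Of 23 other settings, 5 ended the Mbl2 call and 10 the Cfi call in Mdr2-KO, and 18 ended the Cd59a call in Mdr2-KO/IL6-KO. In Mdr2-KO against wild type, 11 of the 31 genes were called (35.5%), 5 higher and 6 lower, where 21.0% of all genes tested were called, 8.89% higher and 12.1% lower. In Mdr2-KO/IL6-KO against wild type, 15 were called (48.4%), 5 higher and 10 lower, with 12.3% of all genes called, 6.96% higher and 5.33% lower. Between Mdr2-KO/IL6-KO and Mdr2-KO, 5 were called (16.1%), 1 higher and 4 lower, with 8.76% of all genes called, 5.04% higher and 3.72% lower. Genes of low mean are called less often. With those of lowest mean dropped, 3705, 2627 and 1857 of the 13292 genes left were called in the same comparisons. These are larger shares than over all genes, and all 31 complement genes are among the genes left. The median difference of the 31 genes was 0.03, -0.21 and -0.11 in those comparisons, and that of all genes tested was -0.07, -0.02 and 0.06. The share of higher calls moved with the scaling: with each array centred on its median, 1006 of all genes were higher and 1573 lower in Mdr2-KO/IL6-KO against wild type, with 424 higher and 1056 lower between the knockouts, where quantile normalization gave 675 and 852. Under quantile normalization 6 complement genes were higher and 4 lower in Mdr2-KO. The first and second comparisons share the wild-type arrays, so the genes called in both are not independent evidence of each other. The complement genes were also chosen with earlier results of these data known, so their shares of calls beside those of all genes are descriptive only.

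**Figure D1:**
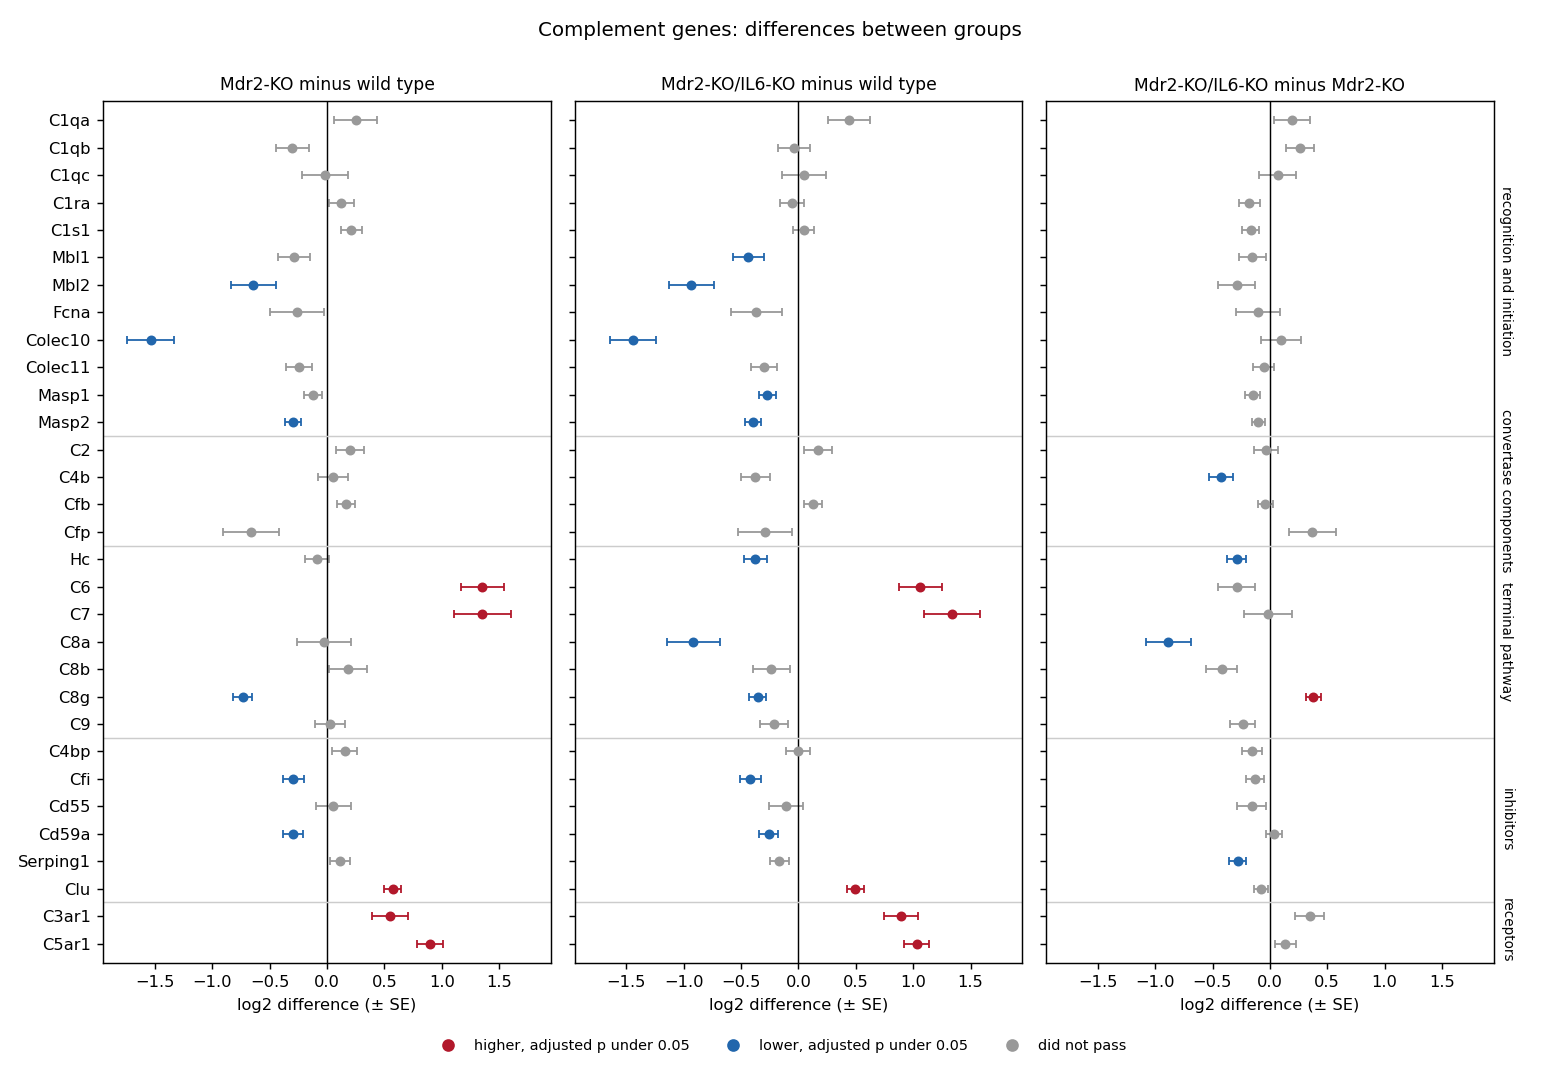
Log2 difference ± SE of each of the 31 complement genes, ordered by role down the page, for Mdr2-KO minus wild type, Mdr2-KO/IL6-KO minus wild type and Mdr2-KO/IL6-KO minus Mdr2-KO; red points were called higher, blue points lower, and grey points did not pass an adjusted p of 0.05. C6 and C7 lie above 1 and Colec10 lies below -1 in both comparisons with wild type, while C8a is near 0 in Mdr2-KO and at -0.91 in Mdr2-KO/IL6-KO.

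The lectin pathway held the largest fall of the list. Colec10 encodes collectin liver 1, a soluble lectin that binds microbial sugars. Its values were 7.16, 7.46 and 8.07 (lowest, median and highest) in Mdr2-KO/IL6-KO livers, 7.36, 7.45, 7.24, 7.75 and 7.40 in Mdr2-KO livers and 9.11, 8.61 and 9.21 in wild-type livers. Each wild-type array lay above each knockout array, and the knockouts overlapped. Colec10 was 2.90-fold lower in Mdr2-KO than in wild type, a difference of -1.54 ± 0.21 (adjusted p = 2.1e-04), and 2.71-fold lower in Mdr2-KO/IL6-KO (-1.44 ± 0.20, adjusted p = 3.2e-04). Between the knockouts it differed by 0.10 ± 0.17 (adjusted p = 0.731). Colec11 encodes its partner in a heteromeric collectin, and its values were 7.29, 7.63 and 7.80 (lowest, median and highest) in Mdr2-KO/IL6-KO, 7.55, 7.72, 7.60, 7.71 and 7.55 in Mdr2-KO and 7.96, 7.91 and 7.74 in wild type. Mdr2-KO lay just under the lowest wild-type array and Mdr2-KO/IL6-KO reached into the wild-type range. Colec11 was called in none of the comparisons, at -0.25 ± 0.11 in Mdr2-KO (adjusted p = 0.129) and at -0.30 ± 0.11 in Mdr2-KO/IL6-KO (adjusted p = 0.0920). Hepatic stellate cells are a known source of both collectins, and among 14 stellate cell and fibroblast markers Reln was lower, at -0.52 in Mdr2-KO, with -0.47 in Mdr2-KO/IL6-KO (adjusted p = 0.0213 and 0.0427). Of the rest, 6 were higher than wild type in Mdr2-KO/IL6-KO and 5 in Mdr2-KO. The mean of these markers ran over 7.98 to 8.56 in Mdr2-KO/IL6-KO, 7.76 to 8.52 in Mdr2-KO and 7.69 to 7.82 in wild type, and the part of stellate cell numbers in the Colec10 values was not tested.

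The mannose-binding lectins Mbl1 and Mbl2 are made by hepatocytes and bind sugars in complex with the serine proteases Masp1 and Masp2. Mbl2 values were 8.66, 9.64 and 9.87 (lowest, median and highest) in Mdr2-KO/IL6-KO, 9.79, 9.78, 9.70, 10.01 and 9.70 in Mdr2-KO and 10.68, 10.29 and 10.34 in wild type. No knockout array reached the wild-type range, and array 2 of Mdr2-KO/IL6-KO was far below the rest of its group. Mbl2 was 1.91-fold lower in Mdr2-KO/IL6-KO (-0.93 ± 0.19, adjusted p = 0.00483) and 1.56-fold lower in Mdr2-KO (-0.64 ± 0.20, adjusted p = 0.0331). The call in Mdr2-KO ended when Mdr2-KO array 1, 3 or 5 or wild-type array 1 or 3 was left out (adjusted p 0.0557 to 0.127). Mbl1 values were 9.42, 9.86 and 10.00 (lowest, median and highest) in Mdr2-KO/IL6-KO, 9.93, 9.95, 10.32, 9.86 and 9.72 in Mdr2-KO and 10.44, 10.18 and 10.12 in wild type, so that Mdr2-KO/IL6-KO stayed below wild type and Mdr2-KO overlapped it through its array 3. Mbl1 was called lower in Mdr2-KO/IL6-KO (-0.44 ± 0.14, adjusted p = 0.0461) but lost the call without array 1, 2 or 6 of Mdr2-KO/IL6-KO, array 1, 2 or 4 of Mdr2-KO or any wild-type array (adjusted p 0.0555 to 0.206), and Mdr2-KO was at -0.29 ± 0.14 (adjusted p = 0.148). The call also ended under quantile normalization (0.0755), with all probes tested (0.0750) and in a fit of the 2 groups alone (0.0515).

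Masp2 encodes the protease that cleaves C4 and C2 in lectin complexes. Its values were 10.79, 10.88 and 11.02 (lowest, median and highest) in Mdr2-KO/IL6-KO, 10.99, 10.99, 11.14, 10.87 and 10.99 in Mdr2-KO and 11.24, 11.28 and 11.36 in wild type. All knockout arrays were below all wild-type arrays by a small margin, with a difference of -0.30 ± 0.07 in Mdr2-KO (adjusted p = 0.00940) and of -0.40 ± 0.07 in Mdr2-KO/IL6-KO (adjusted p = 0.00148). Masp1, whose protease activates Masp2, had values of 10.42, 10.54 and 10.66 (lowest, median and highest) in Mdr2-KO/IL6-KO, 10.62, 10.62, 10.91, 10.61 and 10.64 in Mdr2-KO and 10.78, 10.82 and 10.80 in wild type. The wild-type arrays were almost equal, Mdr2-KO/IL6-KO lay below them, and Mdr2-KO did too on every array but the third. Masp1 was called lower in Mdr2-KO/IL6-KO (-0.27 ± 0.07, adjusted p = 0.0279), a call that ended without array 1 or 3 of Mdr2-KO/IL6-KO or without any wild-type array (adjusted p 0.0527 to 0.0795) and under quantile normalization (adjusted p = 0.100), and Mdr2-KO stood at -0.12 ± 0.08 (adjusted p = 0.271). Fcna, a ficolin of macrophages, averaged 8.28 ± 0.41 in Mdr2-KO/IL6-KO, 8.39 ± 0.29 in Mdr2-KO and 8.65 ± 0.40 in wild type and was called in none. Of the 12 recognition and initiation genes, limma called 0 higher and 3 lower in Mdr2-KO and 0 higher and 5 lower in Mdr2-KO/IL6-KO against wild type, with 0 between the knockouts. At an unadjusted p under 0.05 these counts were 1 higher and 4 lower, 1 higher and 6 lower, and 1 higher and 2 lower. Of all 19938 genes tested, 2692 were higher and 4777 lower at that threshold in Mdr2-KO against wild type. In the other comparisons, in the same order, 2653 were higher and 2436 lower, and 3951 higher and 1819 lower. Against wild type the median difference of the 12 genes was -0.28 in Mdr2-KO/IL6-KO livers and -0.25 in Mdr2-KO livers, and between the knockouts it was -0.10.

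**Figure D2:**
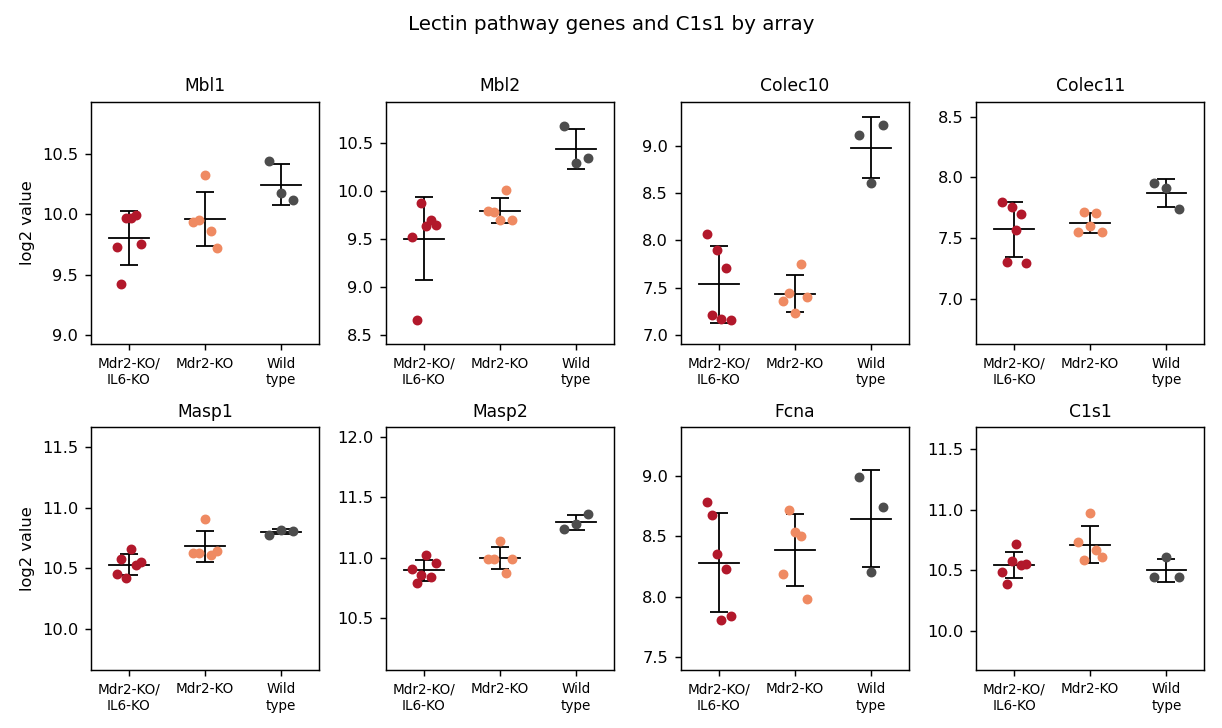
Log2 value of 8 recognition and initiation genes on each array (points), with the group mean (line) and SD (bars), for 6 Mdr2-KO/IL6-KO, 5 Mdr2-KO and 3 wild-type arrays. Colec10 is the gene with the widest gap, at 7.16 to 8.07 and 7.24 to 7.75 in the knockouts and 8.61 to 9.21 in wild type.

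The classical pathway genes were called in no comparison. C1qa, C1qb and C1qc encode the chains of C1q and lie next to each other on chromosome 4. C1qa averaged 9.34 ± 0.39, 9.15 ± 0.10 and 8.90 ± 0.29 in Mdr2-KO/IL6-KO, Mdr2-KO and wild type, C1qb 10.95 ± 0.29, 10.68 ± 0.13 and 10.99 ± 0.14, and C1qc 9.88 ± 0.39, 9.81 ± 0.23 and 9.83 ± 0.25. Array 5 of Mdr2-KO/IL6-KO had the highest value of its group for all chains, at 10.00 for C1qa, 11.54 for C1qb and 10.55 for C1qc, so the chains moved together on that array. Without it C1qb passed as lower in Mdr2-KO (-0.30, adjusted p = 0.0211). The serine proteases C1ra and C1s1, neighbours on chromosome 6, averaged 8.58 ± 0.13 and 10.54 ± 0.11 in Mdr2-KO/IL6-KO, 8.76 ± 0.18 and 10.71 ± 0.15 in Mdr2-KO, and 8.63 ± 0.18 and 10.50 ± 0.10 in wild type. A further probe is assigned to both C1ra and C1rb, which it cannot separate, and averaged 10.47, 10.64 and 10.48 in the same groups.

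The receptor genes C5ar1 and C3ar1 rose in both knockouts. C5ar1, the receptor for C5a on neutrophils and macrophages, had values of 6.89, 7.09 and 7.32 (lowest, median and highest) in Mdr2-KO/IL6-KO, 7.056, 6.998, 7.023, 6.996 and 6.800 in Mdr2-KO and 5.84, 6.33 and 6.05 in wild type. Every knockout array was above every wild-type array. C5ar1 was 1.86-fold higher in Mdr2-KO (0.90 ± 0.11, adjusted p = 1.2e-04) and 2.05-fold higher in Mdr2-KO/IL6-KO (1.03 ± 0.11, adjusted p = 3.5e-05). C3ar1, the receptor for C3a, had values of 8.91, 9.10 and 9.61 (lowest, median and highest) in Mdr2-KO/IL6-KO, 8.79, 8.97, 8.66, 9.11 and 8.76 in Mdr2-KO and 8.39, 8.34 and 8.21 in wild type, again with no overlap between either knockout and wild type. It was 1.86-fold higher in Mdr2-KO/IL6-KO (0.90 ± 0.15, adjusted p = 0.00118) and 1.46-fold higher in Mdr2-KO (0.55 ± 0.15, adjusted p = 0.0217), where the call ended without Mdr2-KO array 4 or wild-type array 3 (adjusted p = 0.0504 and 0.0941). Between the knockouts neither receptor was called, with C3ar1 at 0.35 ± 0.13 (adjusted p = 0.0942). C5ar2, which encodes another receptor for C5a and was read from the list of other complement genes, averaged 6.94 ± 0.11 in Mdr2-KO/IL6-KO, 7.06 ± 0.10 in Mdr2-KO and 7.21 ± 0.10 in wild type. It was called lower in Mdr2-KO/IL6-KO (-0.27 ± 0.08, adjusted p = 0.0303) and stood at -0.16 ± 0.08 in Mdr2-KO (adjusted p = 0.164).

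Myeloid marker lists moved in part with the receptors. Of 12 measured markers of recruited macrophages and monocytes, 7 were called higher than wild type and 5 were not called in each knockout. The 7 were not the same genes: Ctss was called in Mdr2-KO only and Trem2 in Mdr2-KO/IL6-KO only. The largest difference was that of Mmp12, a macrophage elastase, at 2.05 in Mdr2-KO, with 2.71 in Mdr2-KO/IL6-KO (adjusted p = 9.96e-04 and 1.1e-04). In Mdr2-KO 3 of the 12 had a negative difference, Fcer1g at -0.48 (adjusted p = 0.0537), Itgax at -0.34 and Tyrobp at -0.18. In Mdr2-KO/IL6-KO 2 did, Itgax at -0.26 and Fcer1g at -0.19. The mean of the 12 markers ran over 8.54 to 8.74 in Mdr2-KO/IL6-KO, 8.07 to 8.65 in Mdr2-KO and 7.71 to 8.06 in wild type. Of 11 Kupffer cell markers, Timd4 was lower in each knockout and the other 10 were not called against wild type. The mean of the 11 markers ran over 8.41 to 8.97 in Mdr2-KO/IL6-KO, 8.35 to 8.82 in Mdr2-KO and 8.83 to 8.97 in wild type. Between the knockouts, 1 Kupffer cell marker was called, Marco, which was higher in Mdr2-KO/IL6-KO (0.71, adjusted p = 0.0495). Trem2 was the 1 recruited macrophage marker called there, also higher in Mdr2-KO/IL6-KO (0.34, adjusted p = 0.0293). Of the 10 neutrophil markers limma called 0 in each comparison, with 1 at an unadjusted p under 0.05, higher in Mdr2-KO than in wild type. The part of cell numbers in the receptor values was not tested.

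**Figure D3:**
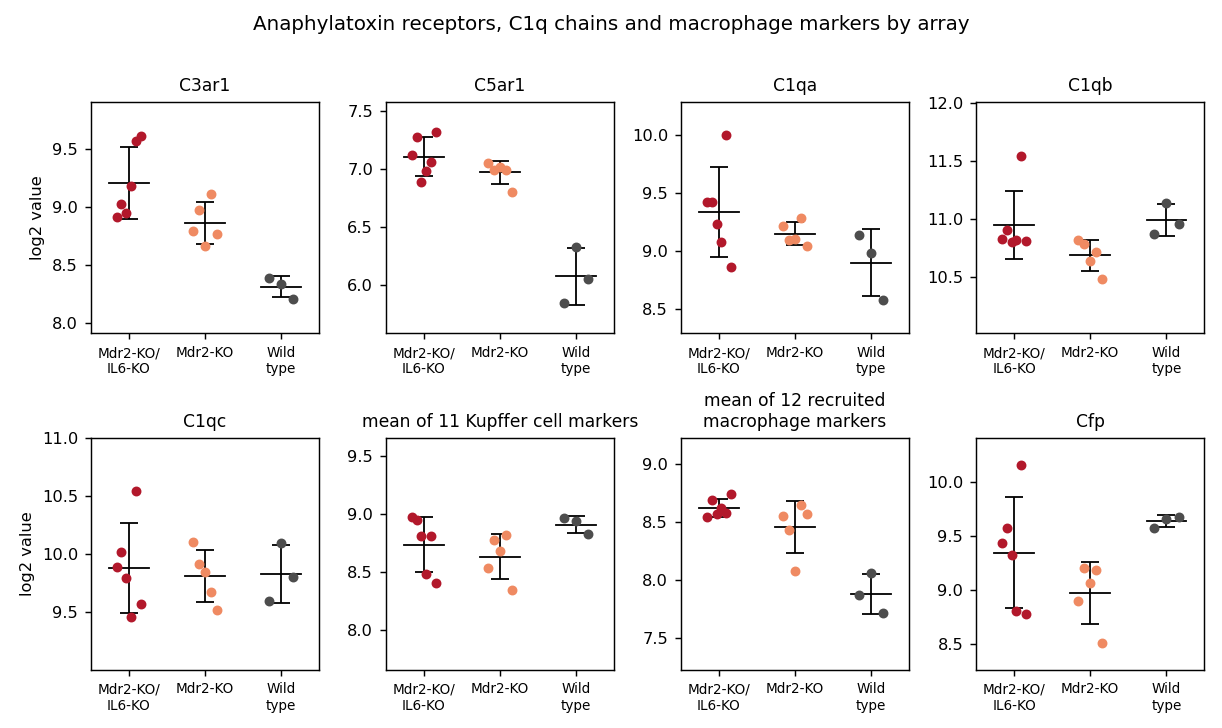
Log2 value of C3ar1, C5ar1, the C1q chains and Cfp, and the mean log2 value of 11 Kupffer cell and 12 recruited macrophage markers, on each array (points) with group mean (line) and SD (bars). C3ar1 and C5ar1 lie above wild type on all knockout arrays, and array 5 of Mdr2-KO/IL6-KO is the top point for C1qa, C1qb, C1qc and Cfp.

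Among the 4 convertase genes only C4b was called, between the knockouts. C4b encodes C4, which is cleaved to form the classical and lectin convertase. Its values were 10.79, 10.90 and 11.13 (lowest, median and highest) in Mdr2-KO/IL6-KO, 11.26, 11.22, 11.86, 11.19 and 11.28 in Mdr2-KO and 11.47, 11.21 and 11.27 in wild type. Every Mdr2-KO/IL6-KO array lay below every Mdr2-KO and wild-type array, and array 3 of Mdr2-KO was far above the others. C4b was 1.34-fold lower in Mdr2-KO/IL6-KO than in Mdr2-KO (-0.43 ± 0.11, adjusted p = 0.0254), and without that array the difference was -0.30 (adjusted p = 0.0290). Against wild type it stood at -0.38 ± 0.13 in Mdr2-KO/IL6-KO (adjusted p = 0.0638) and 0.05 ± 0.13 in Mdr2-KO (adjusted p = 0.798). C4b is nearly identical to its neighbour C4a, which was lower in the same comparison by its own probe, so the signal of the pair may be shared. C2 and Cfb, the proteases of the convertases and adjacent on chromosome 17, averaged 9.19 ± 0.16 and 11.34 ± 0.09 in Mdr2-KO/IL6-KO, 9.22 ± 0.11 and 11.38 ± 0.11 in Mdr2-KO, and 9.02 ± 0.31 and 11.22 ± 0.13 in wild type, and neither was called. Cfp, which encodes properdin, a stabiliser of the alternative convertase, averaged 9.34 ± 0.51 in Mdr2-KO/IL6-KO, 8.97 ± 0.28 in Mdr2-KO and 9.64 ± 0.05 in wild type. All Mdr2-KO arrays were below all wild-type arrays for Cfp, but the difference of -0.66 ± 0.24 did not pass (adjusted p = 0.0627). It passed in a fit of the 2 groups alone and without array 5 or 6 of Mdr2-KO/IL6-KO, with a lowest adjusted p of 0.0118.

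The terminal pathway split into genes that rose, genes that fell and genes that were not called. C6 and C7 encode consecutive proteins of the membrane attack complex and are separated on chromosome 15 by 1 coding gene. C6 values were 9.87, 9.99 and 10.28 (lowest, median and highest) in Mdr2-KO/IL6-KO, 10.62, 10.56, 10.63, 9.86 and 9.88 in Mdr2-KO and 8.78, 9.33 and 8.76 in wild type. The knockouts overlapped each other and stood clear of wild type, where array 2 was the highest. C6 was 2.56-fold higher in Mdr2-KO (1.35 ± 0.19, adjusted p = 2.8e-04) and 2.09-fold higher in Mdr2-KO/IL6-KO (1.06 ± 0.18, adjusted p = 0.00150). C7 values were 6.58, 7.57 and 7.65 (lowest, median and highest) in Mdr2-KO/IL6-KO, 7.67, 6.90, 7.24, 7.03 and 7.61 in Mdr2-KO and 5.92, 5.99 and 5.89 in wild type. The wild-type arrays were close together just above the background level, and the knockouts spread over more than a log2 unit above them, with arrays 1 and 3 of Mdr2-KO/IL6-KO the lowest. C7 was 2.56-fold higher in Mdr2-KO (1.35 ± 0.25, adjusted p = 0.00208) and 2.53-fold higher in Mdr2-KO/IL6-KO (1.34 ± 0.24, adjusted p = 0.00206), and differed between the knockouts by -0.01 ± 0.21 (adjusted p = 0.971). Of the 14 stellate cell and fibroblast markers, 5 were higher, 1 was lower and 8 were not called in Mdr2-KO, with 6 higher, 1 lower and 7 not called in Mdr2-KO/IL6-KO. Their differences ran from -0.52 for Reln to 2.10 for Lum, a matrix proteoglycan, in Mdr2-KO, with a median of 0.43, and the part of fibroblast numbers in the C7 values was not tested.

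C8 is built from the products of C8a, C8b and C8g, and its subunits were called in different comparisons. C8g values were 11.06, 11.25 and 11.34 (lowest, median and highest) in Mdr2-KO/IL6-KO, 10.81, 10.79, 10.87, 10.76 and 10.97 in Mdr2-KO and 11.62, 11.45 and 11.66 in wild type. No group overlapped another: Mdr2-KO was lowest, Mdr2-KO/IL6-KO lay between and wild type was highest. C8g was 1.67-fold lower in Mdr2-KO than in wild type (-0.74 ± 0.08, adjusted p = 3.8e-05), 1.28-fold lower in Mdr2-KO/IL6-KO than in wild type (-0.36 ± 0.08, adjusted p = 0.00682), and 1.30-fold higher in Mdr2-KO/IL6-KO than in Mdr2-KO (0.38 ± 0.07, adjusted p = 0.00413). It was the only one of the 31 called higher between the knockouts.

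C8a values were 9.12, 9.37 and 9.85 (lowest, median and highest) in Mdr2-KO/IL6-KO, 10.17, 10.32, 11.02, 9.83 and 10.21 in Mdr2-KO and 10.47, 10.65 and 9.89 in wild type. Mdr2-KO/IL6-KO lay below wild type on every array and touched only the lowest Mdr2-KO array, whereas Mdr2-KO and wild type overlapped. C8a was 1.85-fold lower in Mdr2-KO/IL6-KO than in Mdr2-KO (-0.88 ± 0.20, adjusted p = 0.0142) and 1.88-fold lower than in wild type (-0.91 ± 0.23, adjusted p = 0.0157). Without Mdr2-KO array 3 the difference between the knockouts was -0.71 (adjusted p = 0.0285), and without both that array and Mdr2-KO/IL6-KO array 2 it was -0.65 (adjusted p = 0.0519). The call against wild type ended without wild-type array 1 or 2 (adjusted p = 0.0708 and 0.0818).

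C8b is the neighbour of C8a on chromosome 4, with no coding gene between them. C8b values were 10.40, 10.56 and 10.82 (lowest, median and highest) in Mdr2-KO/IL6-KO, 11.09, 11.13, 11.44, 10.71 and 10.66 in Mdr2-KO and 10.70, 11.17 and 10.60 in wild type, and the groups overlapped. Its difference between the knockouts was -0.42 ± 0.14 and did not pass (adjusted p = 0.0670), though it did when Mdr2-KO array 5 or wild-type array 2 was left out, with a lowest adjusted p of 0.0347. C9, which forms the pore, had values of 10.93, 11.34 and 11.42 (lowest, median and highest) in Mdr2-KO/IL6-KO, 11.54, 11.55, 11.85, 11.42 and 11.25 in Mdr2-KO and 11.43, 11.67 and 11.38 in wild type. The groups overlapped and C9 was called in no comparison.

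Hc encodes C5, the start of the terminal pathway and the source of C5a. Its values were 11.29, 11.43 and 11.58 (lowest, median and highest) in Mdr2-KO/IL6-KO, 11.63, 11.74, 12.06, 11.62 and 11.54 in Mdr2-KO and 11.94, 11.76 and 11.71 in wild type. All Mdr2-KO/IL6-KO arrays were below wild type, and they overlapped Mdr2-KO at a single array. Hc was 1.30-fold lower in Mdr2-KO/IL6-KO than in wild type (-0.38 ± 0.10, adjusted p = 0.0221, and 0.118 without wild-type array 1). It was 1.22-fold lower than in Mdr2-KO (-0.29 ± 0.09, adjusted p = 0.0477), a call that ended when any of the 14 arrays was left out except array 4 of Mdr2-KO/IL6-KO, array 5 of Mdr2-KO and array 3 of wild type (adjusted p 0.0509 to 0.0969), with -0.20 without Mdr2-KO array 3. It also ended under quantile normalization (0.0519), with all probes tested (0.0569), with array quality weights (0.0567) and in a fit of the 2 groups alone (0.0508). Terminal pathway activity is known to be higher in male than in female mice, and of 10 measured genes with female-biased liver expression 9 were lower in each knockout than in wild type. Of 9 measured genes with male-biased liver expression, 4 were higher and 1 was lower in Mdr2-KO/IL6-KO (Elovl3, -0.58), with 3 higher and 1 lower in Mdr2-KO (Cyp7b1, -0.97). The mean of the female-biased genes ran over 6.25 to 6.91 in Mdr2-KO/IL6-KO, 6.42 to 7.13 in Mdr2-KO and 8.54 to 10.04 in wild type, and the part of either list in the terminal pathway values was not tested. Of the 7 terminal pathway genes, 2 were higher and 1 lower in Mdr2-KO against wild type, 2 higher and 3 lower in Mdr2-KO/IL6-KO against wild type, with 1 higher and 2 lower between the knockouts. The shares called were 42.9%, 71.4% and 42.9%, beside 21.0%, 12.3% and 8.76% of all genes tested.

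**Figure D4:**
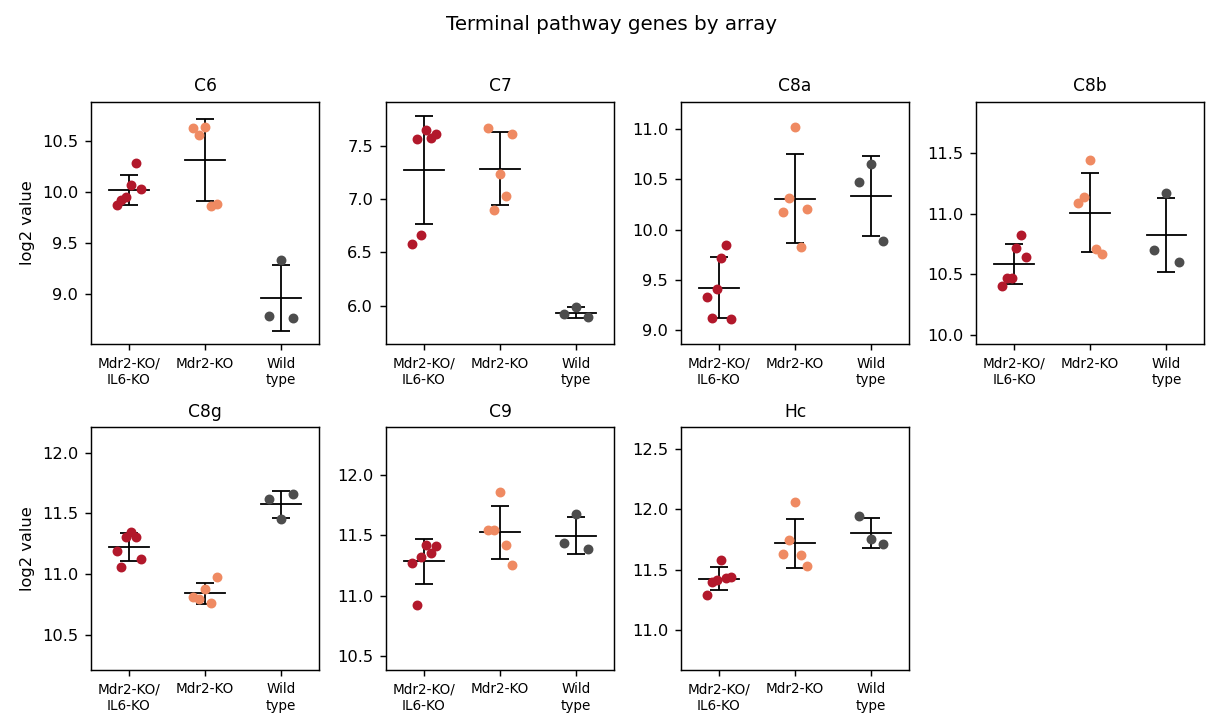
Log2 value of the 7 terminal pathway genes on each array (points), with the group mean (line) and SD (bars). C6 and C7 are above wild type on all knockout arrays, C8a is lowest in Mdr2-KO/IL6-KO at 9.12 to 9.85, and C8g separates the groups without overlap.

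The start regions of C6, C7, C8a, Hc and Masp2 are shown as examples. C6 and C7 rose together in both knockouts, C8a and Hc were lower in Mdr2-KO/IL6-KO than in either other group, and Masp2 was lower than wild type in both knockouts. These traits do not single them out. Mbl2, Cd59a, C8g, C3ar1 and C5ar1 also differed from wild type in both knockouts and have windows that are not shown. Each window shown holds a match, so the examples do not stand for all called genes. The windows are from RefSeq on GRCm38.p6, from 250 bases before to 50 bases after the annotated start, and 22 of the 31 genes have such a window. Letters searched were STAT (TTCNNNGAA, the same on both strands), C/EBP (TTNNGNAAT), NF-kB (GGNNTTTCC) and an interferon element (AAANNGAAA), the last 3 on both strands, and capitals mark the matches. C6 (chr15:4726960-4727259, plus strand) has a C/EBP match on the reverse strand starting 88 bases before the start. C7 (chr15:5063724-5064023, minus strand) has a STAT match 164 bases and a reverse C/EBP match 144 bases before the start. C8a (chr4:104876349-104876648, minus strand) has a STAT match 228 bases before, and Masp2 (chr4:148602294-148602593, plus strand) a STAT match 53 bases before the start. Hc (chr2:35061363-35061662, minus strand) has an interferon element match 26 bases before and a C/EBP match 37 bases after the start.
C6: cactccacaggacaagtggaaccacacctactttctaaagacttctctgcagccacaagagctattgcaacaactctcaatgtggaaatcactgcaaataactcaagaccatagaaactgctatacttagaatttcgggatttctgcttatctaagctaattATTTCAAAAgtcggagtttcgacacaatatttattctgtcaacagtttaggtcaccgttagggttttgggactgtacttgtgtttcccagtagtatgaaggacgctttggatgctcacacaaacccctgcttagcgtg
C7: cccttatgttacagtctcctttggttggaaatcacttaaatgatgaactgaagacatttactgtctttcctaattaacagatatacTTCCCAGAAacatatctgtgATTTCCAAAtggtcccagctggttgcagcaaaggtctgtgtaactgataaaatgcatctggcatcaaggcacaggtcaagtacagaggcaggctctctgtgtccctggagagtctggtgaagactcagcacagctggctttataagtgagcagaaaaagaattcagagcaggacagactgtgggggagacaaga
C8a: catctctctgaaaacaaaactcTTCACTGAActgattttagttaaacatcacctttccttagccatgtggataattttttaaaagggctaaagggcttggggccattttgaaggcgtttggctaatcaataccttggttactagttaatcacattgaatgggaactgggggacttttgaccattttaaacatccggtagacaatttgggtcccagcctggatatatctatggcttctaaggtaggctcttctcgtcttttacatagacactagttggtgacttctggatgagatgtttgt
Hc: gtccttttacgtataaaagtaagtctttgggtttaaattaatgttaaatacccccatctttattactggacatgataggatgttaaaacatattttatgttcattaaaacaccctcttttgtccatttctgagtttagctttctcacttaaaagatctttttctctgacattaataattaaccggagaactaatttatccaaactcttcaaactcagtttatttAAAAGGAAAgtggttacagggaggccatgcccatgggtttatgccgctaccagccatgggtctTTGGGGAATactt
Masp2: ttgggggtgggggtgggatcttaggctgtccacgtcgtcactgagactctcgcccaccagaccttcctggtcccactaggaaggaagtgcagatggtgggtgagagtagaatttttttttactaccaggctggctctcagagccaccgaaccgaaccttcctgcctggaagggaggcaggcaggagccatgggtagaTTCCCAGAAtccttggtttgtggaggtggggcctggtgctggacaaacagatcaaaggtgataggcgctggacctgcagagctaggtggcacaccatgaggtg
Among the 22 genes, 5 held the STAT letters (22.7%), 7 the C/EBP letters (31.8%), 1 the NF-kB letters (4.55%) and 4 the interferon element (18.2%). The shares of all 32851 RefSeq windows were 8.30%, 11.5%, 5.82% and 10.6%. A gene with several windows counts once if any holds the letters, while the shares of all windows are per window. In Colec11 the STAT and interferon matches overlap, and no other matches to different motifs do among these genes. C7 and Masp2 carry the same STAT letters. Of the genes called in at least 1 comparison, C8g, Mbl1, Mbl2 and C5ar1 have none of the searched letters in their windows. Of those called in none, C1qb, C1qc, C4bp, C8b, Cd55 and Cfp have none of them either. Any relation between the letters and the levels was not tested. A match is a description of the letters and not a site or a cause.

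The inhibitors moved in different directions. Clu encodes clusterin, a secreted chaperone that blocks assembly of the membrane attack complex. Its values were 11.59, 11.72 and 11.79 (lowest, median and highest) in Mdr2-KO/IL6-KO, 11.79, 11.71, 11.96, 11.67 and 11.76 in Mdr2-KO and 11.18, 11.30 and 11.13 in wild type, with every knockout array above wild type. Clu was 1.49-fold higher in Mdr2-KO (0.57 ± 0.07, adjusted p = 1.4e-04) and 1.41-fold higher in Mdr2-KO/IL6-KO (0.50 ± 0.07, adjusted p = 4.0e-04). Cfi encodes the protease factor I, which inactivates C3b and C4b, and its values were 11.23, 11.34 and 11.49 (lowest, median and highest) in Mdr2-KO/IL6-KO, 11.33, 11.39, 11.77, 11.47 and 11.42 in Mdr2-KO and 11.91, 11.76 and 11.63 in wild type. Mdr2-KO/IL6-KO lay below wild type throughout, and Mdr2-KO overlapped wild type through its array 3. Cfi was 1.34-fold lower in Mdr2-KO/IL6-KO (-0.42 ± 0.09, adjusted p = 0.00667) and 1.22-fold lower in Mdr2-KO (-0.29 ± 0.09, adjusted p = 0.0392), where the call ended without array 4 of Mdr2-KO/IL6-KO, array 1, 2, 4 or 5 of Mdr2-KO or array 1 or 2 of wild type (adjusted p 0.0504 to 0.157). That call also ended under quantile normalization (0.0637), with all probes tested (0.0511) and in a fit of the 2 groups alone (0.0913).

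Cd59a encodes the membrane protein CD59, which stops the insertion of C9. Its values were 10.44, 10.72 and 10.81 (lowest, median and highest) in Mdr2-KO/IL6-KO, 10.70, 10.62, 10.59, 10.64 and 10.61 in Mdr2-KO and 10.88, 10.83 and 11.08 in wild type. The knockouts overlapped each other and ended just below the lowest wild-type array. Cd59a was lower in Mdr2-KO (-0.30 ± 0.08, adjusted p = 0.0228, with 0.129 without wild-type array 3 and 0.0619 under quantile normalization) and in Mdr2-KO/IL6-KO (-0.26 ± 0.08, adjusted p = 0.0493), the last a call that ended when any array other than array 6 of Mdr2-KO/IL6-KO was left out (adjusted p 0.0507 to 0.232). It also ended under quantile normalization (0.134), with all probes tested (0.0735), with array quality weights (0.0511) and in a fit of the 2 groups alone (0.104). Serping1 encodes C1 inhibitor, which blocks C1r, C1s and the Masp proteases. Its values were 11.79, 11.87 and 11.96 (lowest, median and highest) in Mdr2-KO/IL6-KO, 12.24, 12.05, 12.43, 12.04 and 12.02 in Mdr2-KO and 12.10, 12.09 and 11.94 in wild type. The knockouts did not overlap, and wild type lay across the gap between them. Serping1 was 1.21-fold lower in Mdr2-KO/IL6-KO than in Mdr2-KO (-0.28 ± 0.07, adjusted p = 0.0308), and the call ended without array 1, 2 or 6 of Mdr2-KO/IL6-KO or array 1 or 3 of Mdr2-KO (adjusted p 0.0507 to 0.0815), with -0.21 without Mdr2-KO array 3. C4bp, which takes apart the C4b convertase, averaged 11.47 ± 0.09 in Mdr2-KO/IL6-KO, 11.63 ± 0.20 in Mdr2-KO and 11.47 ± 0.18 in wild type. Cd55, which does so on cell membranes, averaged 7.63 ± 0.24, 7.79 ± 0.23 and 7.74 ± 0.22 in those groups, and neither was called. Of the 6 inhibitors, 1 was higher and 2 were lower than wild type in each knockout, and Serping1 was the 1 called between the knockouts.

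The genes lower in Mdr2-KO/IL6-KO than in Mdr2-KO were C4b, C8a, Hc and Serping1, and some acute phase genes were lower there too. Of 25 acute phase and IL6 response genes, 8 were called lower in this comparison (32.0%, with 3.72% of all genes tested). The other 17 were not called, among them Hp (-0.10), Hpx (-0.04), Cp (-0.05) and Hamp (-0.10). The median difference of the 25 genes was -0.25, with 24 negative, and Saa1 was the lowest at -2.47 (adjusted p = 0.0241). The mean of the 25 genes ran over 10.39 to 10.57 in Mdr2-KO/IL6-KO, 10.73 to 11.61 in Mdr2-KO and 10.63 to 10.89 in wild type. The top of the Mdr2-KO range was array 3, which also had the highest values of its group for C4b, C8a, Hc and Serping1. With that array and Mdr2-KO/IL6-KO array 2 both left out, a comparison added after the data were seen, C4b and C8g were the 2 genes still called between the knockouts. The part of the acute phase state of single arrays in these values was not tested further. Of the 31 genes, 14 were called in none of the comparisons, with adjusted p of 0.0627 to 0.951 in Mdr2-KO against wild type, 0.0920 to 0.994 in Mdr2-KO/IL6-KO against wild type, or 0.0670 to 0.849 between the knockouts, and these values do not show that their levels were equal. Under 1 setting each, C1qa (without array 6 of Mdr2-KO/IL6-KO, 0.0497) and Colec11 (array quality weights, 0.0439) passed in Mdr2-KO/IL6-KO against wild type, as did C1s1 (quantile normalization, 0.0392) and C2 (without wild-type array 2, 0.0270) in Mdr2-KO.

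**Figure D5:**
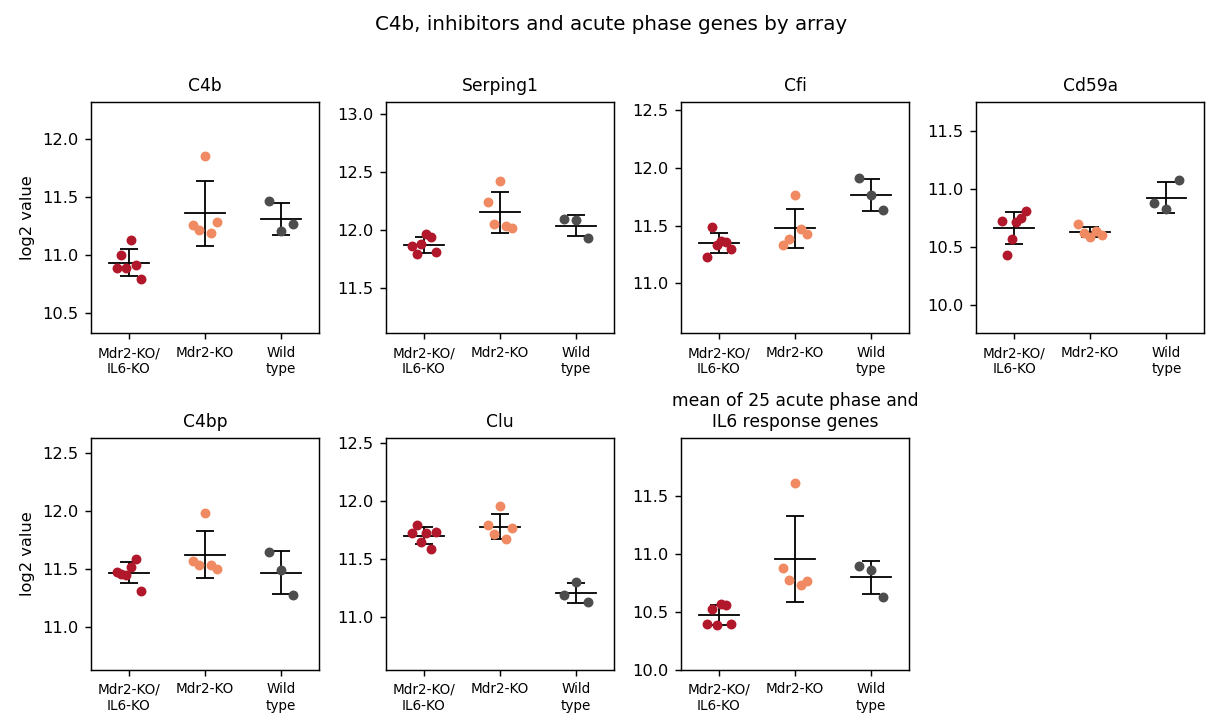
Log2 value of C4b and 5 inhibitors, and the mean log2 value of 25 acute phase and IL6 response genes, on each array (points) with group mean (line) and SD (bars). Mdr2-KO has a single array far above the rest for C4b (11.86), C4bp (11.99) and the acute phase mean (11.61), and Clu is higher in both knockouts than in wild type.

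Other complement genes were read from a list of 28, of which 23 were measured. Mdr2-KO against wild type had 2 higher and 3 lower (21.7% called, with 21.0% of all genes tested). Mdr2-KO/IL6-KO against wild type had 1 higher and 5 lower (26.1%, with 12.3% of all genes). Mdr2-KO/IL6-KO against Mdr2-KO had 1 higher and 2 lower (13.0%, with 8.76% of all genes). The share in Mdr2-KO against wild type was thus close to that of all genes. Susd4, a membrane inhibitor of complement, was lower in Mdr2-KO (-0.71, adjusted p = 5.5e-04) and Mdr2-KO/IL6-KO (-0.45, adjusted p = 0.0106), although its mean in Mdr2-KO was under the background level. Cd93, a receptor of endothelial and myeloid cells, was higher in Mdr2-KO/IL6-KO than in wild type (0.66, adjusted p = 0.00280) and Mdr2-KO (0.37, adjusted p = 0.0417). C4a averaged 7.36 in Mdr2-KO/IL6-KO, 7.99 in Mdr2-KO and 7.83 in wild type, with a difference of -0.63 ± 0.12 between Mdr2-KO/IL6-KO and Mdr2-KO (adjusted p = 0.00768) and -0.47 ± 0.14 between Mdr2-KO/IL6-KO and wild type (adjusted p = 0.0445). Cfhr3 averaged 8.32 in Mdr2-KO/IL6-KO, 8.91 in Mdr2-KO and 8.73 in wild type, with a difference of -0.60 between Mdr2-KO/IL6-KO and Mdr2-KO (adjusted p = 7.8e-04) and -0.42 between Mdr2-KO/IL6-KO and wild type (adjusted p = 0.00773). Cr1l, a membrane regulator of C3 convertases, was higher in Mdr2-KO than in wild type, at 0.46 (adjusted p = 0.0124), with 0.16 in Mdr2-KO/IL6-KO (adjusted p = 0.428).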

How the data were processed

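Liver RNA was measured on 14 Affymetrix mouse gene arrays. The deposited table holds log2 values for 35557 probes, made by the authors with RMA and Partek, per the submitters' processing notes. The versions of these tools were not given in the sources used here, nor were a genome build or a filter. RMA corrects background, equalises the distributions of the arrays and summarises probes, so that a shift shared by all genes would be hidden. The authors' normalization was kept, and array medians over all probes lay between 6.15 and 6.24.

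The array annotation assigns 21789 probes to 1 gene and 1621 to several, and 12147 are unnamed here. The probe of highest mean stood for each of 19938 genes, and each of the 31 complement genes measured had 1 such probe. Genes were tested with limma 3.58.1 in R 4.3.3, fitting 3 group means to the 14 arrays with moderated 2-sided tests, and p-values were adjusted over all genes by the Benjamini-Hochberg method. Tables and plots were made with Python 3.11.15, pandas 2.3.3 and matplotlib 3.10.9. The code was tested on simulated data. The number of arrays limits the precision. A background level of 5.48 is the 95th percentile of the means of 1027 olfactory receptor genes.

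Groups come from the labels, which give no batch and no pairing of arrays. Gene names, neighbours and start regions come from RefSeq (GRCm38.p6). The complement genes and all other lists were chosen with earlier results of these data known. By rule, every array's values were written out for genes called in at least 1 comparison and for their partners in a complex, with the lowest, median and highest for the group of 6. Values with array 2 of Mdr2-KO/IL6-KO and array 3 of Mdr2-KO both left out were added after the data were seen.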

Additional observations from a re-analysis of the deposited data

Results flagged for a closer look

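In each group of 4 to 10 arrays the highest and lowest array of every complement gene were compared with the spread of the group, 62 gene and group pairs in all, and 7 had an array far from the others of its group. Chance flags about 1 in 20 such groups. Array 3 of Mdr2-KO was far above its group for Masp1 (10.91), C4b (11.86) and C4bp (11.99), where the nearest arrays were at 10.64, 11.28 and 11.57. Array 2 of Mdr2-KO/IL6-KO was far below its group for Mbl2 (8.66) and C9 (10.93), with the nearest arrays at 9.52 and 11.27. Array 5 of Mdr2-KO/IL6-KO was far above its group for C1qb (11.54, nearest 10.90). Array 5 of Mdr2-KO was far below its group for C5ar1 (6.80, nearest 6.996).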

How the results depend on the processing

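Calls were repeated under other normalizations, probe choices and moderation settings, with each array left out in turn, and with array 2 of Mdr2-KO/IL6-KO and array 3 of Mdr2-KO both left out, and no called gene changed direction. A further demand of a 1.5-fold change left 6 of the 11 complement genes called in Mdr2-KO against wild type, 7 of the 15 in Mdr2-KO/IL6-KO against wild type, with 1 of the 5 between the knockouts. Leaving out 1 array gave 8 to 13, 10 to 15 and 3 to 6 called genes in those comparisons. Between the knockouts, 3 were called without array 1, 2 or 6 of Mdr2-KO/IL6-KO or without array 1 or 3 of Mdr2-KO, and 6 were called without Mdr2-KO array 5. With array 2 of Mdr2-KO/IL6-KO and array 3 of Mdr2-KO both left out, 2 were called there. The cause was not tested. Apart from the 1.5-fold demand, every setting kept 7 of the 11 calls in Mdr2-KO (Colec10, Masp2, C6, C7, C8g, Clu and C5ar1), 10 of the 15 in Mdr2-KO/IL6-KO against wild type (Mbl2, Colec10, Masp2, C6, C7, C8g, Cfi, Clu, C3ar1 and C5ar1) and 2 of the 5 between the knockouts (C4b and C8g). C4b, not called in Mdr2-KO/IL6-KO against wild type, was called under 6 settings, with a lowest adjusted p of 0.00534. Every comparison with wild type rests on 3 arrays, and C7 is close to background there. No paired analysis was possible because the labels pair no arrays.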

Other observations

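Start regions of complement genes whose levels were not called also held the searched letters. C9 has a reverse C/EBP match 133 bases before its start, C1s1 has C/EBP matches 242 and 52 bases before the upstream one of its annotated starts, and C1ra has a STAT match 32 bases after and reverse C/EBP matches 73 and 30 bases before. C3ar1, which was higher in both knockouts, is the 1 gene with an NF-kB match, 14 bases before the start, and also has an interferon element match 210 bases before. These are matches of letters in RefSeq windows, described without a test.

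Of 14 measured interferon response genes, 5 were lower than wild type in each knockout. Of 9 measured cholangiocyte markers, 6 were higher than wild type in Mdr2-KO/IL6-KO and 4 in Mdr2-KO, and clusterin rose in the same comparisons, as did C6, C7, C3ar1 and C5ar1. The part of cholangiocyte numbers in the clusterin values was not tested.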
